A study of Mus musculus with 12 samples.

Results

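Imprinted genes are expressed mainly or only from the chromosome inherited from one parent. The 36 genes described here were chosen by their Ensembl identifiers, as members of 16 mouse imprinted loci. They were 36 of the 55416 annotated genes, and all 36 were found and passed the filter on low counts, as did 23698 genes in all. Their names came with the identifiers. For all 36 the chromosome in the count files was that of the named gene in RefSeq, and for 28 the length of the gene also lay within 10% of RefSeq's. The rest were Mirg, Mest, Plagl1, Ndn, Kcnq1ot1, Zim1, Copg2 and Blcap. Ndn, for example, spans 3694 bases in the count files and 1652 in RefSeq. By general labels, 18 genes were grouped as paternally and 14 as maternally expressed. The other 4 were set apart as mixed or tissue-dependent (Gnas, Grb10, Commd1 and Blcap). Which allele the ovary expresses was not measured. The labels therefore do not show that the grouped genes are expressed from a single allele in this tissue. Long non-coding RNAs make up 6 of them (H19, Meg3, Rian, Mirg, Kcnq1ot1 and Airn).

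The series compared ovaries of mouse embryos at E16.5 with and without FMRP, the RNA-binding protein encoded by Fmr1, and asked which transcripts FMRP binds. Of its 12 libraries, 3 knockout (KO) and 3 wild-type (WT) libraries were made from RNA of the whole ovary homogenate, called input. The other 3 KO and 3 WT libraries held RNA precipitated with an antibody to FMRP (ab17722), an assay called RIP-seq; the KO precipitates give the antibody's background in tissue labelled as lacking its target. Each library came from a pool of 5 pairs of ovaries, the samples were labelled as biological replicates, and no cells were sorted. All 12 carried the strain label B6.129P2-Fmr1tm1Cgr/J, a germline Fmr1 allele on a C57BL/6 background. The WT input animals were littermates of the KO, and the Fmr1 dosage of the KO embryos was not given in the sources used here. No treatment was applied to either genotype. Counts were not separated by parental allele, so each value below is the sum of both alleles.

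Imprints are methylation marks set in the parental germ lines. Body cells keep them, helped by the zinc finger protein ZFP57 and its partner TRIM28, while female germ cells of the fetal ovary have erased them and will set new ones only after birth. An imprinted locus often holds genes of both kinds, and a non-coding RNA made from one allele can silence its neighbours on that allele. Many imprinted genes act on fetal growth, and their products are abundant in mesenchymal and endocrine tissue before birth.

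Input libraries held 18880238 to 25707718 assigned reads. Fmr1 itself checked the labels: it stood at 85.4, 123 and 93.2 CPM (reads relative to library size, scaled with TMM factors) in KO input and at 204, 212 and 221 CPM in WT input. The KO values did not overlap the WT values, and the log2 change was -1.08 (SE 0.11, edgeR quasi-likelihood test, Benjamini-Hochberg adjusted p = 0.0077). Markers of the expected cell types were present: Foxl2, Wnt4 and Kitl of pregranulosa cells summed to 482–497 (KO) and 487–525 (WT) CPM, and Ddx4, Dazl, Sycp1, Sycp3 and Stra8 of germ cells to 273–336 (KO) and 203–274 (WT) CPM. The Sertoli cell markers Sox9 and Amh summed to 10.2–11.7 (KO) and 10.6–11.6 (WT) CPM. In whole ovaries, fewer cells of a type and less RNA per cell cannot be told apart.

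Several members are also hosts of microRNAs, which were not measured in these libraries. The host levels below are not measures of the microRNAs, whose sequences are given as background. RefSeq (build GRCm38.p6) placed 18 hairpins with 36 mature microRNAs within 7 members, 10 of the hairpins in Mirg, 3 in Rian and 1 each in H19, Igf2, Meg3, Mest and Usp29. The most abundant member, H19, holds miR-675, on the minus strand of chromosome 7. Its 2 mature forms carry different seeds, shown in capitals (bases 2 to 8), and so do those of miR-335 in Mest and miR-483 in Igf2:
mmu-miR-675-5p (H19): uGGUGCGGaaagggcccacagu
mmu-miR-675-3p (H19): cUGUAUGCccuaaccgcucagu
mmu-miR-335-5p (Mest): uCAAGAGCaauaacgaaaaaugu
mmu-miR-335-3p (Mest): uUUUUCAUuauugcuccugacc
mmu-miR-483-5p (Igf2): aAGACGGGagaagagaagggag
mmu-miR-483-3p (Igf2): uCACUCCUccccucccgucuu

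Among all 36 there were 35 different seeds. The 1 seed carried by more than 1 microRNA, GGUUGCC, belonged to a pair from Mirg, on the plus strand of chromosome 12:
mmu-miR-453: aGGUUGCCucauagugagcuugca
mmu-miR-496a-5p: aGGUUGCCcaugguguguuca

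Promoter sequence was not used to choose the members. RefSeq windows of 300 bases (from 250 before to 50 after a start) were found for 30 members, 44 windows in all, and their ratio of observed to expected CpG ran from 0 (Rian) to 0.97 (Grb10). The median was 0.61, against 0.38 over 32851 mouse windows, and the difference was not tested. The hexamer TGCCGC, the letters that ZFP57 recognises when methylated, was searched on both strands; read from the other strand it is GCGGCA. It stood in 10 of the 44 windows (22.7%) and in 11.6% of all windows. Counted by gene, 9 of the 30 members (Mest, Nnat, Copg2, Zim1, Igf2, Plagl1, Grb10, Commd1 and Meg3) and 13.1% of 27025 genes had a window with it. A match is a description of letters, and methylation was not measured. Mest has 2 windows with the hexamer, whose starts lie 3 bases apart, so they hold the same matches. The first, at chr6:30737800-30738099 on the plus strand (GRCm38.p6), is printed with both matches in capitals:
Mest: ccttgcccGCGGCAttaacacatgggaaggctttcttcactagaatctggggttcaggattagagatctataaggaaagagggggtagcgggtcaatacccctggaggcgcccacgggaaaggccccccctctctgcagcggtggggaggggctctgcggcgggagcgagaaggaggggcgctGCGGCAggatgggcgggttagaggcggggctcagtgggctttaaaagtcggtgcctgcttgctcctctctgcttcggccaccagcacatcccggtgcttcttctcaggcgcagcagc

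The Peg3 window is printed because Peg3 is the member with the most reads among those that differed most between KO and WT. It lies at chr7:6730370-6730669 on the minus strand, has no TGCCGC, and holds 13 CpG, shown in capitals:
Peg3: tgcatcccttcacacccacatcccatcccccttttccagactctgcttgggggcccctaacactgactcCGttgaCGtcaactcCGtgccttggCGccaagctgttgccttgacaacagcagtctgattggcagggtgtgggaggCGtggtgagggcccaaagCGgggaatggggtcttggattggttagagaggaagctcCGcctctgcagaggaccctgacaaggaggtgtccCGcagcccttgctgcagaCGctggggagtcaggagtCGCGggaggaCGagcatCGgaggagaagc

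This window also belongs to the neighbouring gene. The starts of Peg3 and Usp29, transcribed away from each other, lie 147 bases apart in the count files' annotation, and their RefSeq windows share 263 bases. Peg10 and Sgce form a similar pair, with starts 99 bases apart.

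The 36 genes took 1.57–1.68% of all input reads. H19 alone took 0.813–0.862%. To compare levels between genes, CPM was divided by the kilobases of annotated exon. By this measure 15 of the 36 lay in the top 10% of the tested genes in WT, and the members ranged from the 11th to the 21454th of 23698. In CPM, 16 members exceeded 100, another 11 lay between 10 and 100, and 9 were below 10.

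H19 (ENSMUSG00000000031, chr7:142129266-142131880, minus strand, in the build of the count files), a maternally expressed non-coding RNA that restrains growth, stood at 8369, 8472 and 8482 CPM in KO and 8641, 8244 and 8242 CPM in WT. Per kilobase it reached 3405 ± 93.3 CPM in WT (SD, n = 3), the 11th highest of all tested genes. Its libraries overlapped between the genotypes and differed by a log2 change of 0.01 (SE 0.048). Igf2 (ENSMUSG00000048583, chr7:142204503-142220553), the fetal growth factor expressed from the paternal chromosome of the same locus, stood at 624, 609 and 590 CPM in KO and 579, 611 and 666 CPM in WT. That was 108 ± 7.69 CPM per kilobase in WT, rank 389. The Igf2 level is a lower estimate: 64.5% of its exon length is shared with other genes, most of it with ENSMUSG00000115302 on the same strand, and reads there were assigned to no gene. Over its unshared exon alone Igf2 came to 305 CPM per kilobase in WT.

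Per kilobase of all annotated exon, Mest and Dlk1 came next after H19. Mest (chr6:30723546-30748464), a paternally expressed enzyme gene of the mesoderm, stood at 770, 763 and 722 CPM in KO and 735, 757 and 769 CPM in WT, which per kilobase in WT was 191 ± 4.27 CPM. Dlk1 (chr12:109418749-109429262), a paternally expressed membrane protein related to Notch ligands, stood at 1078, 970 and 943 CPM in KO and 1018, 1055 and 1054 CPM in WT, or 184 ± 3.78 CPM per kilobase in WT. The next pair, Cd81 and Cdkn1c, both had 124 CPM per kilobase in WT. Cd81, a tetraspanin of the cell surface, stood at 370, 346 and 331 CPM in KO and 366, 357 and 352 CPM in WT. Cdkn1c, a cyclin-dependent kinase inhibitor that stops growth and is expressed from the maternal chromosome, stood at 278, 246 and 273 CPM in KO and 253, 265 and 240 CPM in WT. The order depends on how shared exon is treated, since 23.1% of Mest exon and 30.7% of Cdkn1c exon is shared with other genes and its reads were not assigned. Per kilobase of unshared exon the WT levels were 305 ± 21.7 CPM for Igf2, 248 ± 5.56 for Mest, 184 ± 3.78 for Dlk1, 179 ± 8.75 for Cdkn1c and 129 ± 2.56 for Cd81 (SD, n = 3). On that scale Igf2 stood second to H19, Cdkn1c stood above Cd81, and Dlk1 and Cdkn1c differed by less than their spread.

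Igf2r (ENSMUSG00000023830), the maternally expressed receptor that takes IGF2 to lysosomes, stood at 738, 783 and 728 CPM in KO and 801, 725 and 712 CPM in WT, or 80.2 ± 5.16 CPM per kilobase in WT. Grb10, an adaptor that dampens insulin and IGF receptor signalling, stood at 671, 643 and 675 CPM in KO and 633, 629 and 607 CPM in WT. Each Grb10 library of the KO thus lay above each WT library, with a log2 change of 0.09 (SE 0.055, unadjusted p = 0.12, adjusted p = 0.92). Nnat, a small membrane protein gene expressed from the paternal chromosome, stood at 102, 99.4 and 114 CPM in KO and 100.3, 99.2 and 103.8 CPM in WT. Plagl1, a zinc finger transcription factor of the paternal chromosome, stood at 374, 363 and 356 CPM in KO and 377, 353 and 334 CPM in WT. Both overlapped between the genotypes.

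The non-coding RNAs of the Dlk1 locus, which are transcribed from the maternal chromosome, covered a wide range. Meg3 stood at 330, 397 and 341 CPM in KO and 417, 378 and 347 CPM in WT. Rian stood at 389, 433 and 387 CPM in KO and 437, 397 and 376 CPM in WT. In both genes KO replicate 2 and WT replicate 1 were the highest of their groups, and the groups overlapped. Mirg was lower, at 17–25 CPM over the 6 libraries. Kcnq1ot1, the paternal RNA that silences the Cdkn1c domain, stood at 125, 147 and 140 CPM in KO and 145, 129 and 112 CPM in WT, with the same replicates highest. Airn, the paternal RNA that silences Igf2r, stood at 26.8, 22.0 and 21.5 CPM in KO and 22.3, 23.3 and 22.4 CPM in WT. Its transcription unit crosses Igf2r on the opposite strand. Their annotated exons do not overlap, but reads were counted without regard to strand. Any unspliced Igf2r RNA over Airn exons would therefore count as Airn. The same applies to Kcnq1ot1 within Kcnq1 and to Nnat within Blcap, also on opposite strands. How many such reads there were was not measured.

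The 9 members below 10 CPM in WT included Magel2 and Mkrn3 of the Ndn locus, the placental regulators Phlda2 and Ascl2, Dio3, an enzyme that inactivates thyroid hormone, and the exchange factor gene Rasgrf1. Phlda2 had 10–46 reads per library and Ascl2 4–16. With so few reads the standard errors of their log2 changes were wide, 0.19–0.51 over the 9 genes, against 0.048–0.085 for the 16 members above 100 CPM.

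**Figure D1:**
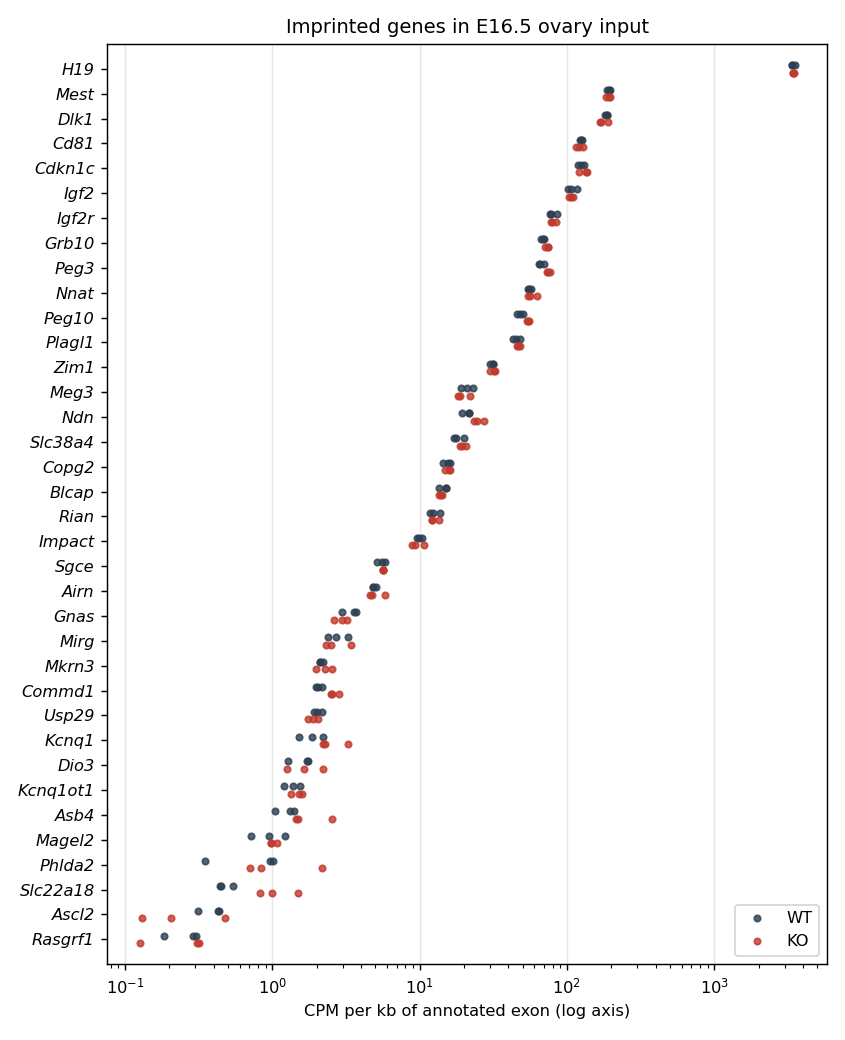
Level of each of the 36 imprinted genes in input, as CPM per kilobase of annotated exon on a log axis, 1 point for each of 3 WT (dark) and 3 KO (red) libraries, in the order of the WT mean. H19 stands alone at 3405 in WT, Mest and Dlk1 follow at 191 and 184 on this scale, and the points of the genotypes overlap for most genes.

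No imprinted gene passed the test between KO and WT input: 0 of 36 were called by edgeR at an adjusted p under 0.05, where 0.0422% of all tested genes were (10 of 23698). The smallest adjusted p of a member was 0.44. At an unadjusted p under 0.05 there were 7 members (19.4%), against 5.9% of all tested genes; all 7 had higher KO means, a direction in which 2.9% of all tested genes passed that bound. They were Slc22a18, Ndn, Peg3, Peg10, Commd1, Kcnq1 and Asb4. None of them survived the adjustment over all genes, so they are reported as differences that failed it. Of the 36 estimates 23 were positive and 13 negative (63.9% positive, against 49.5% of all tested genes), with a median log2 change of 0.04 against -0.0020 for all. For 23 members the estimate lay within 0.1 of 0 on the log2 scale.

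The paternally expressed Peg3, Peg10 and Ndn had the smallest standard errors among these 7. Peg3 (ENSMUSG00000002265, chr7:6706891-6733430), a large zinc finger transcription factor, stood at 999, 1014 and 1052 CPM in KO and 946, 883 and 889 CPM in WT. Every KO library lay above every WT library, by 12.8% on average, with a log2 change of 0.17 (SE 0.055, edgeR, unadjusted p = 0.0049, adjusted p = 0.56). Peg10 (ENSMUSG00000092035, chr6:4747306-4760517), a gene derived from a retrotransposon and needed by the placenta, stood at 358, 362 and 371 CPM in KO and 335, 306 and 320 CPM in WT. Here too the groups did not overlap, and the log2 change was 0.18 (SE 0.059, unadjusted p = 0.0051, adjusted p = 0.56). Ndn (ENSMUSG00000033585, chr7:61996317-62000010) encodes necdin, a MAGE family protein of the Prader-Willi locus that restrains proliferation. Ndn stood at 100.4, 86.2 and 90.4 CPM in KO and 79.4, 80.1 and 71.2 CPM in WT. The groups did not overlap, and the log2 change was 0.26 (SE 0.077, unadjusted p = 0.0026, adjusted p = 0.47).

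Their closest neighbours had estimates nearer to 0 or below it. Usp29, a ubiquitin protease gene that starts 147 bases from Peg3 and is also paternally expressed, stood at 31.8, 37.1 and 34.3 CPM in KO and 36.2, 34.6 and 39.4 CPM in WT. Its estimate was a log2 change of -0.09 (SE 0.098). Sgce, which starts 99 bases from Peg10 and encodes a sarcoglycan, stood at 60.1, 60.2 and 59.9 CPM in KO and 59.2, 61.9 and 54.2 CPM in WT, with a log2 change of 0.04 (SE 0.077). Magel2 and Mkrn3, the neighbours of Ndn, had estimates of 0.06 (SE 0.22) and 0.09 (SE 0.19). None of these differences between neighbours was tested.

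The other 4 genes were low. Commd1 (ENSMUSG00000051355), a copper and NF-kB regulator, stood at 16.9, 14.8 and 15.2 CPM in KO and 12.2, 13.0 and 11.8 CPM in WT, without overlap. Its log2 change was 0.34 (SE 0.13, unadjusted p = 0.019), and the p rose to 0.078 without KO replicate 1 and to 0.059 without WT replicate 3. Of its exon length, 11.9% is shared with other genes. Kcnq1, a potassium channel gene of the maternal chromosome, stood at 13.5, 9.27 and 8.98 CPM in KO and 9.05, 6.18 and 7.61 CPM in WT. KO replicate 1 was the highest and the groups overlapped. The log2 change of 0.47 (SE 0.19, edgeR unadjusted p = 0.020) fell to 0.26 (unadjusted p = 0.20) without KO replicate 1, and to 0.34 (unadjusted p = 0.11) without WT replicate 2.

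Asb4, a maternally expressed member of a ubiquitin ligase complex, stood at 5.87, 5.71 and 9.93 CPM in KO and 5.15, 4.09 and 5.53 CPM in WT. The groups did not overlap, but KO replicate 3 stood far above the rest. The log2 change of 0.54 (SE 0.22, edgeR unadjusted p = 0.025) was 0.24 (unadjusted p = 0.30) without it and 0.42 (unadjusted p = 0.10) without WT replicate 2. Slc22a18 (ENSMUSG00000000154, chr7:143027473-143053071), a transporter gene of the Cdkn1c domain, had 27, 61 and 32 reads in KO and 19, 21 and 16 in WT. Scaled, these were 1.40, 2.52 and 1.69 CPM against 0.75, 0.91 and 0.76 CPM, and the groups did not overlap. The log2 change of 1.22 (SE 0.35, unadjusted p = 0.0021, adjusted p = 0.44) was the largest of the 36 estimates and rested on the fewest reads of the 7. Of the other maternal genes of this domain, Kcnq1 was at 0.47 as given above, Cdkn1c was at 0.07 (SE 0.065), Cd81 at -0.04 (SE 0.060), Ascl2 at -0.54 (SE 0.51) and Phlda2 at 0.66 (SE 0.47). The Phlda2 estimate was -0.0042 without KO replicate 3.

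**Figure D2:**
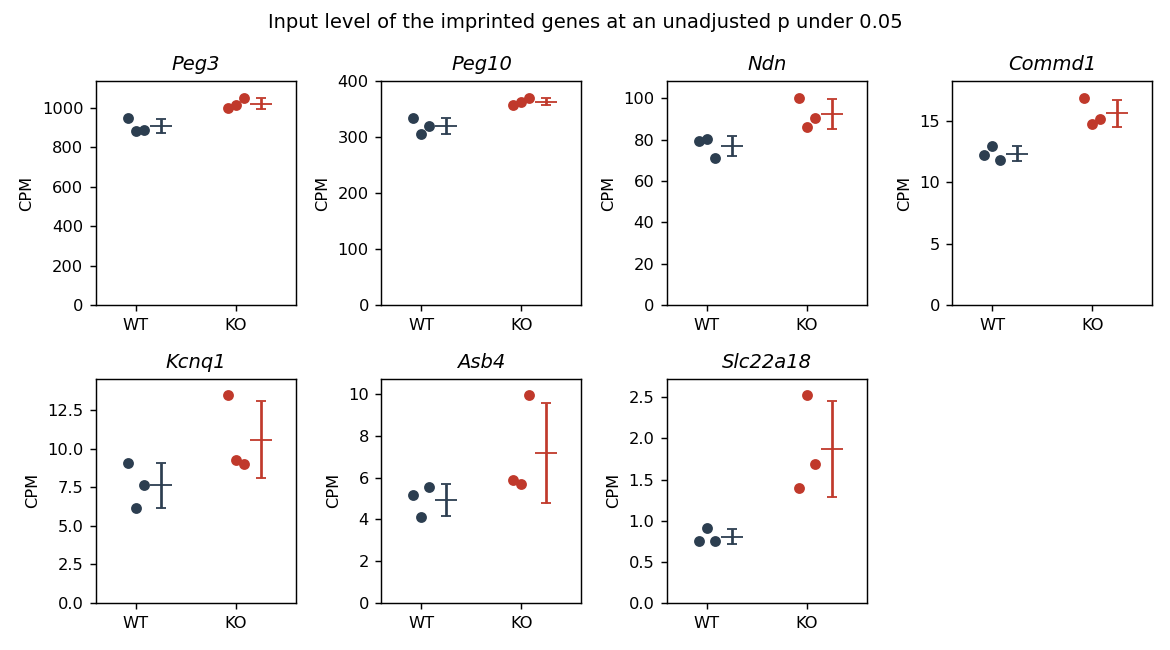
Input level in CPM of the 7 imprinted genes at an unadjusted p under 0.05, 1 panel per gene with an axis from 0, points for 3 WT and 3 KO libraries and bars for the mean and SD. Peg3, Peg10, Ndn, Commd1 and Slc22a18 have no overlap between the genotypes, Asb4 has 1 KO library far above the rest, and Kcnq1 overlaps.

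Counted without a model, 7 members had every KO library above every WT library (Peg3, Peg10, Ndn, Grb10, Slc22a18, Asb4 and Commd1), against 5.22% of all tested genes. No member had every KO library below every WT library, against 5.69%. Without WT replicate 1 the first count was 13 members, against 10.1% of all tested genes. Genes of both the paternal and the maternal group were found among the 7. The median log2 change was 0.05 over the 18 paternal and 0.02 over the 14 maternal members, and 3 of each reached an unadjusted p under 0.05. The most negative estimate of a member above 10 CPM was that of Gnas, the locus of the stimulatory G protein subunit, at 36.9, 34.0 and 30.02 CPM in KO and 34.0, 42.2 and 40.9 CPM in WT. The groups overlapped, with a log2 change of -0.21 (SE 0.11, unadjusted p = 0.058). That level covers part of Gnas, since 21.6% of its exon length is shared with antisense genes.

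**Figure D3:**
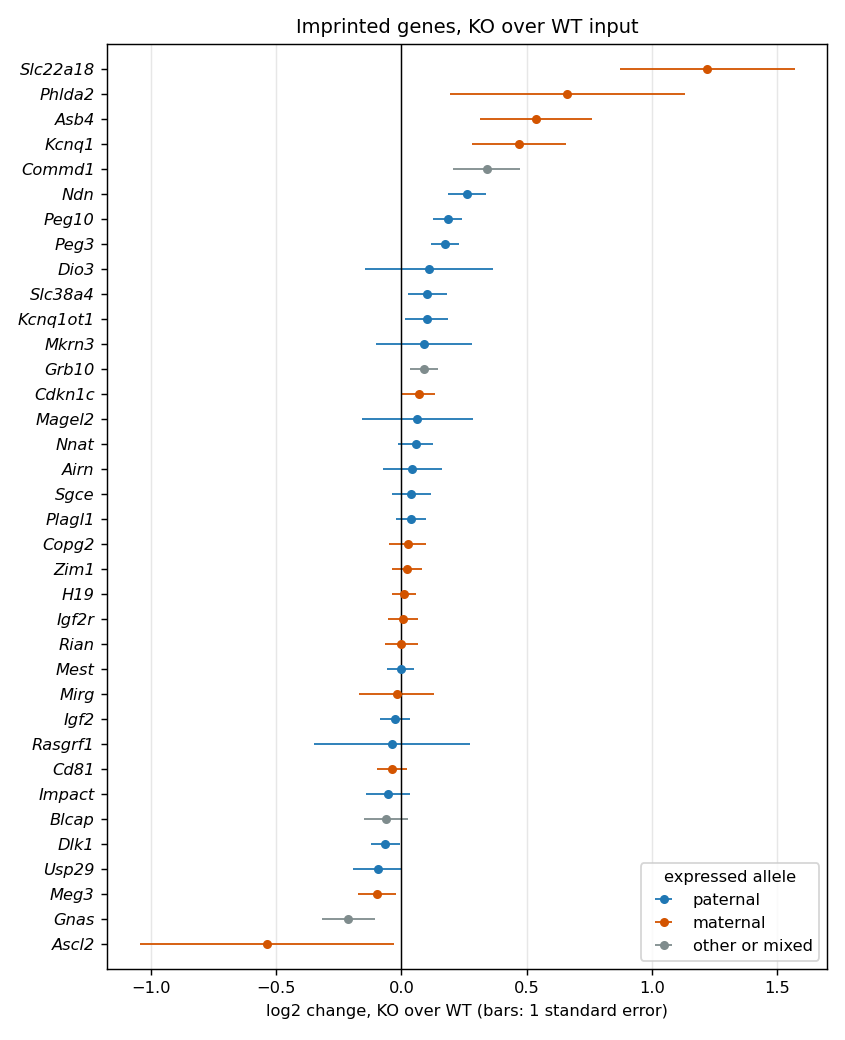
Log2 change of each imprinted gene in KO over WT input, in descending order, with bars of 1 standard error. Colours give the parental label assigned to each gene, which was not measured in ovary. The maternal genes hold both ends of the order, from Slc22a18 at 1.22 to Ascl2 at -0.54, the paternal genes lie between Ndn at 0.26 and Usp29 at -0.09, and 23 estimates lie within 0.1 of 0.

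Some cell type markers also had estimates on 1 side of 0. All 5 germ cell markers had positive estimates (median log2 change 0.26), 2 of them at an unadjusted p under 0.05 (Ddx4 and Sycp3). All 5 overlapped between the genotypes and were lowest in WT replicate 1. Ddx4, Dazl and Sycp1 were highest in KO replicate 2, and Sycp3 and Stra8 in KO replicate 1. All 4 erythroid markers had negative estimates (median -0.59), 3 of them at an unadjusted p under 0.05, and their sum was 8044–10508 (KO) and 11022–15541 (WT) CPM. Of 6 stromal markers 1, Dcn, was lower at an unadjusted p under 0.05, and of 3 endothelial markers 1, Cdh5. The sums of the 6 stromal markers overlapped, with 18355–20021 (KO) and 17483–22061 (WT) CPM. The pairs of surface epithelium, mesonephros, macrophage and Sertoli markers and the 3 pregranulosa markers had none at that bound. None of these marker genes was called after adjustment, and their part in the higher estimates of the 7 imprinted genes was not tested.

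Opposite expression at a locus can be followed as the ratio of its maternally to its paternally expressed gene within each library, which needs no scaling between libraries. Each of 7 such pairs was compared by a two-sided exact permutation test, which with 3 against 3 libraries cannot go below p = 0.1 and so cannot pass a threshold of 0.05. The log2 ratio of H19 to Igf2 reads was 3.74, 3.80 and 3.85 in KO and 3.90, 3.75 and 3.63 in WT. That of Meg3 to Dlk1 was -1.71, -1.29 and -1.47 in KO and -1.29, -1.48 and -1.60 in WT. In both pairs the genotypes overlapped fully (p = 0.8 and p = 0.9, exact permutation test).

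The Zim1 to Peg3 ratio was the exception in that its groups did not overlap. Zim1, a zinc finger gene of the maternal chromosome beside Peg3, stood at 243, 263 and 257 CPM in KO and 254, 256 and 241 CPM in WT. The log2 ratio was -2.04, -1.95 and -2.03 in KO and -1.90, -1.79 and -1.88 in WT. The difference of -0.15 reached the smallest p the design allows (0.1, exact permutation test), which is 0.7 after Benjamini-Hochberg adjustment over the 7 pairs. The log2 ratio of Asb4 to Peg10 was -5.92, -5.98 and -5.22 in KO and -6.02, -6.22 and -5.85 in WT, and only KO replicate 3 stood apart (difference 0.32, exact permutation p = 0.4). For Igf2r to Airn, Cdkn1c to Kcnq1ot1 and Copg2 to Mest the KO means were 5.01, 0.95 and -3.23 and the WT means 5.04, 0.99 and -3.26, with exact permutation p from 0.8 to 0.9. Copg2, a coat protein gene of the maternal chromosome in mice, stood at 80.9, 82.7 and 76.1 CPM in KO and 80.0, 73.8 and 81.9 CPM in WT. A stretch of 912 bases of Mest and Copg2 exons overlaps on opposite strands and was counted for neither.

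**Figure D4:**
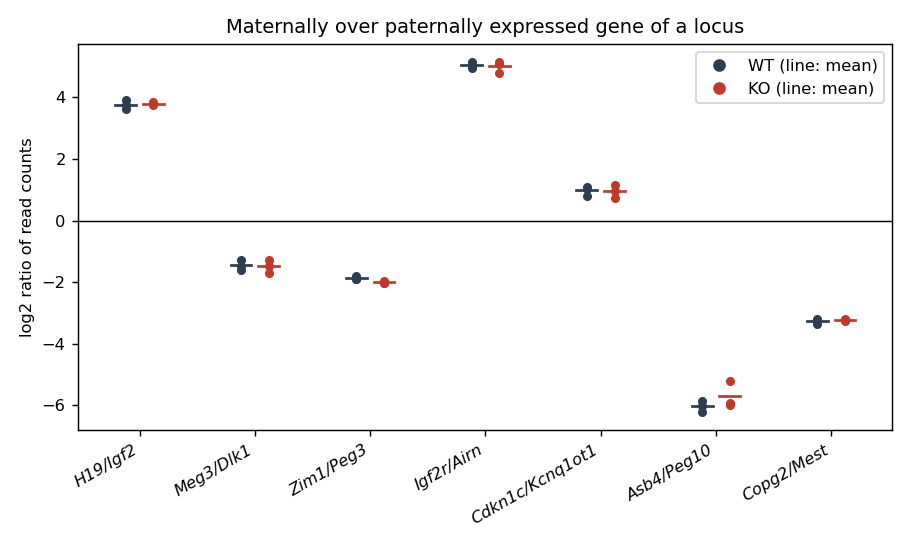
Log2 ratio of reads of the maternally over the paternally expressed gene at 7 loci, 1 point per input library and a line at the mean of 3 WT (dark) and 3 KO (red) libraries. The genotypes overlap at every locus except Zim1 over Peg3, where the KO mean is -2.01 and the WT mean -1.86.

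Genes that work with Igf2, Igf2r and Grb10 were also compared. Of 12 genes of the IGF pathway (ligand, receptors, docking proteins, mRNA-binding and IGF-binding proteins), 0 were called between KO and WT, and 1 passed an unadjusted p of 0.05. This was Igf1, at 498, 485 and 452 CPM in KO and 554, 515 and 507 CPM in WT, a log2 change of -0.14 (SE 0.060, unadjusted p = 0.034, adjusted p = 0.81). Every KO library of Igf1 lay below every WT library. The same held for Igfbp4, at 628, 591 and 573 CPM in KO and 634, 650 and 647 CPM in WT (edgeR, unadjusted p = 0.075). Such separation was seen in 5.69% of all tested genes, and the other genes of the list overlapped. The median log2 change of the 12 was 0.06. The receptor Igf1r lay at 244–267 (KO) and 232–258 (WT) CPM, and Igfbp5 at 2206–2356 and 2182–2339 CPM.

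Of 12 genes that keep or erase imprints, 10 passed the filter on low counts, and none was called or reached an unadjusted p under 0.05. Zfp57 lay at 24.3–27.4 (KO) and 21.4–30.9 (WT) CPM, and its partner Trim28 at 258–300 and 283–294 CPM. The maintenance methyltransferase Dnmt1 lay at 133–144 and 110–141 CPM, and Tet1, which oxidises methylated cytosine, at 84.4–99.9 and 90.7–96.1 CPM. Dnmt3l, the cofactor that oocytes use to set imprints after birth, and Dppa3 stayed below the filter, at no more than 0.28 and 0.48 CPM in any library.

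The RIP table lists the authors' fold enrichments, a linear ratio whose denominator is not given in the sources used here. It has 14447 rows for 7525 genes, and a gene can have several rows. Of the 36 imprinted genes 16 had rows, 48 in all. These were 46 distinct sets of values, because Mest and Copg2 shared a row and so did Nnat and Blcap. The only row of Ndn, all 3 rows of Commd1 and the higher row of Cdkn1c were also listed for other genes. The ratios of shared rows cannot be given to 1 gene. None of the 6 non-coding RNAs had a row, H19 included, and neither had Igf2, Impact, Gnas, Sgce, Usp29 or the 9 members below 10 CPM.

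Presence in the table followed input level among all genes, so the members were set beside genes of like level. At 300 CPM or more in WT input, 8 of 12 members had a row, against 80.4% of all genes at that level; the 4 without were H19, Igf2, Meg3 and Rian. Between 100 and 300 CPM it was 3 of 4 against 82.5%, and between 30 and 100 CPM 4 of 8 against 63.2%. Below that, Commd1 was the 1 member with rows among 3 at 10 to 30 CPM, where 36.9% of all genes had one. How rows were chosen for the table is not given in the sources used here.

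No row of an imprinted gene separated WT from KO precipitates after adjustment. By limma on log2(ratio + 1), 0 of the 46 tested rows were called, and 0% of the 14365 tested rows of the whole table. At an unadjusted p under 0.05 there were 0 member rows, against 8.85% of all rows. In 5 distinct rows the groups did not overlap, in either direction, against 15.2% of all rows. Only the Igf2r row with the smallest p was higher in WT among them. Both Cdkn1c rows, another Igf2r row and the lower Zim1 row were lower in WT. By group means of the ratios as listed, without centring, 29 distinct rows were higher in WT and 17 lower. The share of all rows higher in WT was not computed. In the centred fit the median log2 difference was 0.016 for the tested member rows and -0.0021 for all tested rows. Igf2r supplied 16 of the 29 and 5 of the 17, and the other 25 distinct rows were split into 13 and 12. The mean ratios over all 6 libraries had a median of 2.59 for the members and 1.77 for all rows. Igf2r weighed on this too: its 21 rows had a median of 3.73, and the other 25 rows one of 1.73.

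Igf2r had 21 of the rows, and 7 genes of the table had 21 or more. Its highest row had ratios of 2.99, 45.7 and 3.24 in KO and 68.6, 23.3 and 25.5 in WT. KO replicate 2 stood among the WT libraries, and the log2 difference of 1.94 (SE 1.06, on log2(ratio + 1), limma, unadjusted p = 0.11, adjusted p = 0.66) did not pass. The second row had 22.1, 7.72 and 12.2 in KO and 12.6, 9.57 and 16.2 in WT, and the third 6.95, 9.36 and 9.43 in KO and 7.59, 10.4 and 7.51 in WT. Both overlapped fully. The row of Igf2r with the smallest p had 3.88, 3.71 and 3.83 in KO and 5.50, 5.01 and 7.13 in WT. These groups did not overlap, the WT mean was 1.54 times the KO mean, and the log2 difference was 0.51 (SE 0.23, limma, unadjusted p = 0.060, adjusted p = 0.58). Another Igf2r row separated in the opposite direction, with 2.638, 3.34 and 2.79 in KO and 2.19, 2.636 and 2.15 in WT. Its log2 difference was -0.23 (SE 0.13, limma, unadjusted p = 0.12, adjusted p = 0.67).

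Grb10 and Dlk1 followed Igf2r in height. The highest Grb10 row had ratios of 21.7, 22.2 and 17.1 in KO and 20.1, 13.6 and 29.5 in WT, higher than 99.3% of all rows by its mean and nearly equal between the genotypes (log2 difference -0.01, SE 0.62). Its next row had 7.22, 6.81 and 8.88 in KO and 6.26, 6.83 and 7.64 in WT. The highest Dlk1 row had 9.20, 6.77 and 7.10 in KO and 8.91, 8.19 and 6.97 in WT, again overlapping (log2 difference 0.06, SE 0.33). Mest had a row at 5.09, 5.74 and 4.26 in KO and 6.99, 5.60 and 6.66 in WT, and another in which WT replicate 1 stood at 15.1 and the other 5 libraries between 1.26 and 5.43.

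Peg3, Peg10 and Ndn, the abundant genes whose input differed most, had rows near or below the table's median of 1.77, apart from the higher Peg3 row. Peg10 had 1.71, 1.83 and 1.58 in KO and 1.78, 1.76 and 1.75 in WT. The Ndn row, also listed for another gene, had 1.72, 1.99 and 1.69 in KO and 1.79, 1.81 and 1.79 in WT. The higher of the Peg3 rows had 2.05, 1.84 and 2.05 in KO and 1.95, 2.12 and 1.91 in WT, and the lower 1.11, 1.15 and 1.05 in KO and 1.07, 1.12 and 0.945 in WT. All 4 rows overlapped between the genotypes. Cdkn1c had both of its rows lower in WT without overlap. The first, also listed for another gene, had 2.86, 3.70 and 2.68 in KO and 2.59, 2.30 and 2.58 in WT (log2 difference -0.22, SE 0.15, adjusted p = 0.72 by limma). The deposited ratios carry no read depth, so their counting error is unknown.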

How the data were processed

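Input was analysed as deposited read counts per gene, 3 KO and 3 WT libraries. Per the file headers, the authors counted reads over exons with featureCounts 1.6.3 and Ensembl 104, with no strand option and with reads in exons shared by 2 genes left unassigned. Without roles, BWA 0.7.12, FastQC, DESeq2 1.26.0, GRCm38 and MACS2 2.1.0 appear in the submitters' processing notes. Gene coordinates are those of the count files, whose annotation release belongs to a later build; microRNA and promoter coordinates are RefSeq's on GRCm38.p6, and none was converted. The RIP values are a fold enrichment, a linear ratio that the authors deposited for 6 libraries. Per-sample columns left unmapped numbered 0.

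KO was set over WT input in edgeR 4.0.16 under R 4.3.3 (TMM, filterByExpr, robust quasi-likelihood), with Benjamini-Hochberg adjustment over all 23698 genes at 0.05; SE is the estimate over the square root of F. RIP ratios were tested with limma 3.58.1 (eBayes with trend) on log2(ratio + 1), with columns centred at their median and rows of a mean under 1 left out; this scale understates changes of low ratios. Pair ratios used reads + 0.5. The biological coefficient of variation was 12.1%. Each library pool counts as 1 replicate. Same-numbered KO and WT libraries did not deviate together (r from -0.071 to -0.034 in input and -0.60 to -0.22 in RIP), so the numbers were not used as pairs. Differently numbered RIP libraries had r from -0.25 to 0.45. RIP libraries thus shared variation across the genotypes, and the main RIP fit took no account of it. Values in every library are given for the 12 members highest per kilobase in WT, those at an unadjusted p under 0.05, the genes of the 7 pairs and the 6 highest RIP rows; the other RIP rows and members given library by library (Rian, Gnas, Usp29, Sgce, other rows of Igf2r, Mest, Cdkn1c, Peg3, Peg10 and Ndn) were chosen after their values were seen. The members, lists and tests were chosen with earlier results of these data known. The fits were also run on simulated data. There the RIP libraries varied independently, so the simulation does not cover the shared variation of the real RIP libraries. Alternatives were DESeq2 1.42.0, other scaling, filters, pseudocounts, a replicate block and leaving out each library.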

Additional observations from a re-analysis of the deposited data

How the results depend on the processing

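No imprinted gene was called under any of 12 input alternatives (smallest adjusted p 0.20, with no filter on low counts), and no RIP row of an imprinted gene under any of 12 RIP alternatives (smallest 0.44). Members at an unadjusted p under 0.05 numbered 5 to 9 over the input alternatives. Peg3, Ndn, Peg10 and Slc22a18 were among them in all 12. In the main fit 5.9% of all tested genes passed that bound. The number with every KO library above every WT library was 7 to 13 when 1 library was left out. The share of all tested genes was 5.22% with all libraries and 10.1% without WT replicate 1, the setting with 13. Separation is easier with fewer libraries, and shares for the other settings were not computed. Over all genes, calls rose from 10 to 37 with DESeq2, to 113 with no filter on low counts and to 20 with the replicate block, and ranged from 5 (without KO replicate 2) to 37 (without KO replicate 1), with 28 without WT replicate 2, when 1 library was left out. With the replicate block, 0 members were called and 7 had an unadjusted p under 0.05; the numbers do not pair the libraries. Estimates changed sign, most of them near 0; the exception in size was Phlda2 (0.66), which rested on KO replicate 3. That of Rian was 0.0016 with DESeq2, 0.0023 with RLE factors, 0.0033 with upper-quartile factors and 0.00088 with the block. When 1 library was left out, 17 log2 changes crossed 0: H19 (-0.00079 to 0.035), Igf2 (-0.071 to 0.029), Rian (-0.054 to 0.063), Mirg (-0.21 to 0.11), Mest (-0.021 to 0.029), Plagl1 (-0.0035 to 0.086), Igf2r (-0.026 to 0.062), Impact (-0.13 to 0.00032), Sgce (-0.012 to 0.083), Airn (-0.062 to 0.10), Phlda2 (-0.0042 to 0.96), Zim1 (-0.0051 to 0.054), Magel2 (-0.11 to 0.27), Cd81 (-0.082 to 0.0014), Dio3 (-0.12 to 0.30), Copg2 (-0.018 to 0.062) and Rasgrf1 (-0.23 to 0.28). None of these 17 was among the 7 genes at an unadjusted p under 0.05. In the same way the highest Grb10 row ran from -0.28 to 0.26, the second Igf2r row ran from -0.38 to 0.34, the third Igf2r row ran from -0.15 to 0.062 and the highest Dlk1 row ran from -0.023 to 0.19. Other RIP settings turned the sign of the highest Grb10 row (0.0071 with a pseudocount of 10, 0.34 after quantile normalization) and, after quantile normalization, of the second Igf2r row (0.0061) and the third (0.19). The differences in log2 pair ratio ran from -0.14 to 0.067 for Cdkn1c/Kcnq1ot1, -0.019 to 0.060 for Copg2/Mest, -0.030 to 0.11 for H19/Igf2, -0.10 to 0.081 for Igf2r/Airn and -0.13 to 0.080 for Meg3/Dlk1. The cause of these sign changes was not tested. Depth limits the genes below 10 CPM.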
